A study of Mus musculus with 9 samples.

Results

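Early inner ear neurons are born in the epithelium of the otic vesicle, the closed sac from which the whole inner ear develops. The genes described here are 5 transcription factors of those neuroblasts (*Neurog1*, *Neurod1*, *Neurod4*, *Pou4f1* and *Insm1*), a pair of neurotrophins (*Bdnf* and *Ntf3*) and 3 neurotrophin receptors (*Ngfr*, *Ntrk2* and *Ntrk3*). Every probe listed under one of these symbols was taken, whatever its values. All 10 genes were found among the 18120 gene symbols of the array, with 18 of its 25697 probes.

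RNA came from E10.5 mouse embryos of the CD-1 strain, a stage at which the otic vesicle (OV) can be dissected away from the tissue around it. Per the study's methods, 3 litters were dissected into pools of 20 OVs, pools of periotic tissue that held mesenchyme and hindbrain, and pools of embryos from which the otic area had been removed, here called embryo-minus-otic. Each group had 3 pools and each pool had an array of its own, with no genetic change or treatment given in the labels. The pools are the replicates, and the p-values below measure the spread between them, with 3 arrays per group limiting the precision.

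Neuroblasts of the inner ear are specified by the basic helix-loop-helix factor Neurog1, which switches on Neurod1, and they leave the otic epithelium by delamination to form the vestibular and cochlear ganglia. Neurotrophins are secreted proteins that keep such neurons alive and guide their fibres. BDNF signals through the receptor kinase TrkB (*Ntrk2*), NT-3 (*Ntf3*) through TrkC (*Ntrk3*), and both also bind the shared receptor p75 (*Ngfr*).

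Helix-loop-helix factors bind E-boxes, short DNA motifs spelled CANNTG, so the windows upstream of the 3 helix-loop-helix genes are shown first. The sequences are from RefSeq on build GRCm38.p6 and cover the 250 bases before an annotated transcription start, 5′ to 3′ along the gene, with each E-box in capitals. All 3 genes lie on the minus strand, *Neurog1* at chr13:56252181-56252430, *Neurod1* at chr2:79456637-79456886 and *Neurod4* at chr10:130280255-130280504.
Neurog1: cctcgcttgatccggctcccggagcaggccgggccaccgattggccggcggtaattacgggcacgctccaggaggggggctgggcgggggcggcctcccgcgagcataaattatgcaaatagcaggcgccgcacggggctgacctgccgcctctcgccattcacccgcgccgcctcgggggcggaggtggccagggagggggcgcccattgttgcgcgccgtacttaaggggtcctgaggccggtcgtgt
Neurod1: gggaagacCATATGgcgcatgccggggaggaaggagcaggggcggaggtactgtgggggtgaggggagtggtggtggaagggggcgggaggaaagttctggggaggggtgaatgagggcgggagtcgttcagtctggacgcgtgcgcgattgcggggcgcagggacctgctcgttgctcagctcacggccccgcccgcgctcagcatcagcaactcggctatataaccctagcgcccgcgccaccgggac
Neurod4: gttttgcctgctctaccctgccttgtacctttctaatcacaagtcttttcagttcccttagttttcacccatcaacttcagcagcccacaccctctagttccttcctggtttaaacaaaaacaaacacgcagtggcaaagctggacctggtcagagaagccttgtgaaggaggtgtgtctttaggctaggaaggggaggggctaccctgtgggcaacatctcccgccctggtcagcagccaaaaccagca
The *Neurod1* window held 1 E-box, CATATG, which begins 242 bases before the start. The *Neurog1* window and the *Neurod4* window held 0, which says only that these letters are not in those windows. E-boxes were common at this length, with CANNTG in 66.2% of 32851 promoter windows of 250 bases, while the form CAGATG or its reverse CATCTG was in 14.4% and CAGCTG in 13.0%. Of the 10 genes, 8 had an entry in the promoter table, with 16 windows between them, and 12 of those windows held CANNTG. *Bdnf*, a gene with many alternative first exons, had 7 windows, and 6 of them held an E-box.

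Intensities are given as log2 values after quantile normalization over the 9 arrays, as the value on each array followed by the mean ± SD (n = 3). A probe was above background on an array when its deposited detection p-value was under 0.01. Differences were tested with limma, with calls made at a *q* under 0.05, where *q* stands for the p adjusted over all 25697 probes by Benjamini-Hochberg. Where a group had no array above background, the fold Δ is given as a lower bound, computed against the lowest signal above background on each array, or against the dim probe where that was higher. Intensities of different probes cannot be set against each other.

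The tissue labels were checked against marker genes. The study had ranked *Oc90*, *Fbxo2* and *Gata3* among its top OV probes from these arrays. A high OV sum of the otic epithelium list was therefore known beforehand and is no independent check of the OV label. On each array 43.9 to 47.3% of probes were above background. The 14 probes of 9 otic epithelium genes (*Oc90*, *Fbxo2*, *Gata3* and others) summed to a normalized intensity of 6510 to 8147 on OV arrays (median 7022), 1053 to 1157 on periotic tissue arrays (median 1136) and 1800 to 1956 on embryo-minus-otic arrays (median 1844). Hindbrain and neural tube genes (12 genes, 14 probes) summed to 1089 to 1213 on OV arrays (median 1170), 6355 to 7457 on periotic tissue arrays (median 6519) and 2424 to 2750 on embryo-minus-otic arrays (median 2590). The hindbrain markers *Dbx1*, *Egr2*, *Nkx6-1*, *Nkx2-2* and *Lhx5* were not above background on any OV array, and 10 of the 14 hindbrain probes were not. Neural crest and glia genes (4 genes, 8 probes) summed to 1352 to 1457, 5003 to 5312 and 2403 to 2712 in the same order of groups, with medians of 1370, 5264 and 2580, and 5, 4 and 5 of the probes above background on no array. The mesenchyme list (8 genes, 12 probes) summed to 1702 to 1884, 1794 to 2140 and 3854 to 4453, with medians of 1882, 1993 and 4339. Its OV and periotic tissue ranges overlapped, and 2 of its probes were called lower in OV than in periotic tissue. This list therefore did not separate OV from periotic tissue.

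**Figure D1:**
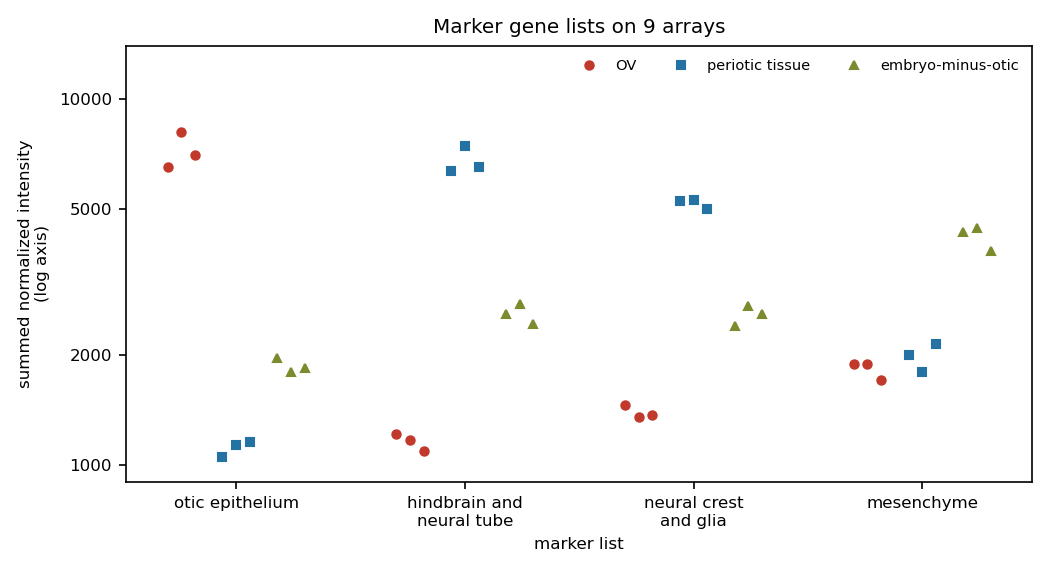
Summed normalized intensity (log axis) of 4 marker gene lists on each of the 9 arrays, with OV as circles, periotic tissue as squares and embryo-minus-otic as triangles. The otic epithelium list is highest on the OV arrays (6510 to 8147), and the hindbrain list is highest on the periotic tissue arrays (6355 to 7457). The mesenchyme list overlaps between OV (1702 to 1884) and periotic tissue (1794 to 2140).

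Of the 18 probes, 12 passed background throughout at least 1 group, on its 3 arrays, and 15 passed on at least 1 array. Between OV and periotic tissue, 4 probes were higher in OV (5.07% of all probes were) and 5 were lower in OV (background 5.15%). Between OV and embryo-minus-otic, 6 were higher in OV (background 5.89%) and 2 were lower (background 5.51%). Against both non-otic groups at once, 4 probes of 3 genes were higher in OV (background 3.51%), namely *Neurod1*, *Ntf3* and 2 probes of *Bdnf*. The 2 probes lower in OV than in both groups (background 2.65%) were those of *Neurod4* and 1 probe of *Ntrk3*. The median difference over the 18 probes was -0.09 (log2) for OV against periotic tissue and 0.05 against embryo-minus-otic, beside medians over all probes that rounded to 0.00.

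**Figure D2:**
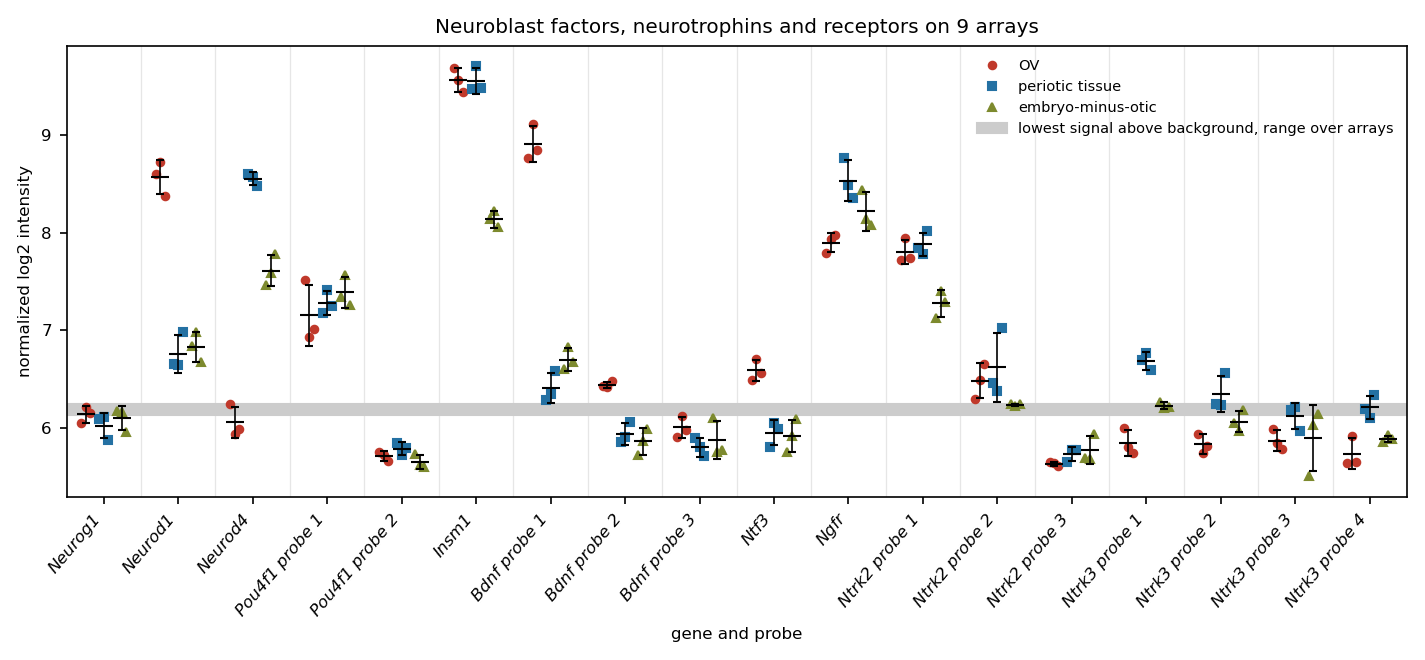
Normalized log2 intensity of all 18 probes on the 9 arrays, with OV as circles, periotic tissue as squares and embryo-minus-otic as triangles, and with bars for the group mean ± SD (n = 3). The grey band spans the lowest signal above background over the arrays. *Neurod1* and *Bdnf* probe 1 stand above all non-otic arrays in OV, and *Neurod4* falls to the band or below it in OV. Levels of different probes are not comparable.

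*Neurod1*, which neuroblasts need in order to delaminate and survive, exceeded both non-otic groups in OV by more than 3-fold. The OV arrays read 8.60, 8.73 and 8.38 (8.57 ± 0.175), the periotic tissue arrays 6.65, 6.64 and 6.98 (6.76 ± 0.194) and the embryo-minus-otic arrays 6.84, 6.99 and 6.67 (6.83 ± 0.156). Every OV array stood above all 6 non-otic arrays, and the probe was above background on all 9. The fold Δ was 3.51 against periotic tissue (log2 difference 1.81, SE 0.12, *q* = 2.94e-08) and 3.33 against embryo-minus-otic (1.74, SE 0.12, *q* = 5.48e-08). By OV fold Δ, the OV mean over the higher non-otic mean, the probe ranked 63 of 25697. The part of neurons of other cranial ganglia in this value was not tested. Between periotic tissue and embryo-minus-otic the difference was -0.07 with a 95% interval of -0.33 to 0.18 (*q* = 0.86). Because each array holds RNA from a mixed tissue, fewer cells of a type and less RNA per cell cannot be told apart, here or in any result below.

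*Neurog1*, the factor that acts before *Neurod1* in the same lineage, was at the limit of detection. Its single probe read 6.05, 6.22 and 6.15 for OV (6.14 ± 0.0854), 6.09, 6.11 and 5.88 for periotic tissue (6.03 ± 0.13) and 6.17, 6.17 and 5.96 for embryo-minus-otic (6.10 ± 0.121). It was above background on 1 of the 9 arrays, an OV array. Under a looser detection threshold of 0.05 it passed on 3 OV arrays, 2 periotic tissue arrays and 2 embryo-minus-otic arrays. The groups overlapped, and the difference between OV and periotic tissue was 0.11 with a 95% interval of -0.09 to 0.32 (*q* = 0.637). The OV difference from embryo-minus-otic was 0.04 (-0.17 to 0.25, *q* = 0.886). A difference in *Neurog1* was therefore not detectable at this signal, and no fold Δ is given.

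*Neurod4*, a relative of *Neurod1* that is also used in hindbrain neurogenesis, went the other way. Periotic tissue read 8.60, 8.58 and 8.48 (8.55 ± 0.0666), embryo-minus-otic 7.46, 7.59 and 7.78 (7.61 ± 0.158) and OV 6.24, 5.94 and 5.99 (6.06 ± 0.162). The 3 groups did not overlap, and only 1 OV array was above background, so the OV mean lies near the limit of detection. The measured OV mean was 5.64-fold lower than that of periotic tissue (log2 difference -2.49, SE 0.105, *q* = 1.74e-10) and 2.93-fold lower than that of embryo-minus-otic (-1.55, *q* = 4.46e-08). With normexp background correction (neqc) in place of plain quantile normalization, the OV to periotic tissue ratio went from 0.177 to 0.0822 and the OV to embryo-minus-otic ratio from 0.341 to 0.178. Periotic tissue was 1.92-fold higher than embryo-minus-otic (0.94, *q* = 2.63e-05). The summed hindbrain and neural crest lists moved in the same order, highest in periotic tissue and lowest in OV. Their part in the result was not tested.

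*Insm1*, a zinc finger factor of newly born neurons and endocrine cells, was higher in OV and in periotic tissue than in embryo-minus-otic. It read 9.69, 9.56 and 9.44 for OV (9.57 ± 0.123), 9.48, 9.71 and 9.49 for periotic tissue (9.56 ± 0.131) and 8.14, 8.22 and 8.05 for embryo-minus-otic (8.14 ± 0.0844). OV and periotic tissue overlapped, with a difference of 0.01 and a 95% interval of -0.20 to 0.22 (*q* = 0.983). Both stood above all embryo-minus-otic arrays, OV by 2.69-fold (log2 difference 1.43, *q* = 5.07e-08) and periotic tissue by 2.67-fold (1.42, *q* = 1.38e-07).

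*Pou4f1*, which encodes the sensory neuron factor Brn3a, gave no called difference between groups. Its measurable probe read 7.51, 6.94 and 7.01 for OV (7.15 ± 0.313), 7.18, 7.42 and 7.25 for periotic tissue (7.28 ± 0.124) and 7.35, 7.57 and 7.26 for embryo-minus-otic (7.39 ± 0.158). The OV difference was -0.13 from periotic tissue (95% interval -0.42 to 0.16, *q* = 0.728) and -0.24 from embryo-minus-otic (-0.53 to 0.05, *q* = 0.357). OV replicate 1 was the highest of the 3 OV arrays, and without it the ratio of OV to embryo-minus-otic was 0.749, past the threshold (*q* = 0.0351, in a range of 0.0351 to 0.833 over the alternatives). Over the 25 probes of the neuronal gene list described below that were above background on an OV array, replicate 1 was the highest of the OV arrays at 9, replicate 2 at 6 and replicate 3 at 10. Such a count takes no account of size. Of that list's genes named below, *Stmn2* read 7.43, 6.59 and 6.14 in OV and *Nefm* 7.15, 6.68 and 6.42. *Myt1* read 6.33, 5.84 and 6.02. These genes and *Neurog2* were highest in replicate 1, while *Hes6* was highest in replicate 3. Whether replicate 1 held more neuronal RNA was not tested. The second *Pou4f1* probe was above background on no array.

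The neurotrophin *Bdnf*, made in the developing sensory patches, was the gene of the set with the highest OV fold Δ. The study had already listed *Bdnf* among its top OV probes from these arrays, so a high rank was known beforehand. Probe 1, annotated to transcript variant 3, read 8.76, 9.12 and 8.85 for OV (8.91 ± 0.184), 6.29, 6.35 and 6.58 for periotic tissue (6.41 ± 0.154) and 6.60, 6.83 and 6.67 for embryo-minus-otic (6.70 ± 0.116). All OV arrays were above all 6 non-otic arrays. The fold Δ was 5.67 against periotic tissue (log2 difference 2.50, SE 0.111, *q* = 3.3e-10) and 4.62 against embryo-minus-otic (2.21, *q* = 2.11e-09), which ranked the probe 26 of 25697. With neqc the fold Δ against periotic tissue was 9.85. Periotic tissue and embryo-minus-otic differed by -0.30 (95% interval -0.53 to -0.06), which did not pass the threshold (*q* = 0.171).

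The other *Bdnf* probes were dim. Probe 2 read 6.43, 6.42 and 6.48 for OV (6.44 ± 0.0324), 5.85, 5.91 and 6.07 for periotic tissue (5.94 ± 0.111) and 5.72, 5.87 and 5.99 for embryo-minus-otic (5.86 ± 0.135). It was above background on the 3 OV arrays and on none of the non-otic arrays, so OV was at least 1.20-fold higher than periotic tissue (*q* = 0.00173) and at least 1.17-fold higher than embryo-minus-otic (*q* = 0.000471). Both calls were lost without normalization between arrays (*q* = 0.135 and 0.256), the upper ends of ranges over the alternatives that began at 0.000502 and 0.000153. Probe 3 was above background on no array.

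*Ntf3*, the partner neurotrophin that is needed mainly by cochlear neurons, was also above background in OV alone. Its probe read 6.50, 6.71 and 6.57 for OV (6.59 ± 0.109), 5.81, 6.05 and 5.99 for periotic tissue (5.95 ± 0.128) and 5.76, 5.91 and 6.09 for embryo-minus-otic (5.92 ± 0.166). The OV arrays were above background and above all 6 non-otic arrays, none of which was above background. OV was at least 1.33-fold higher than periotic tissue (log2 difference 0.64, SE 0.105, *q* = 0.000536) and at least 1.30-fold higher than embryo-minus-otic (0.67, *q* = 0.000348). The second call was lost without normalization between arrays (*q* = 0.0919, in a range from 8.27e-05 over the alternatives), and with neqc the measured ratio of OV to embryo-minus-otic went from 1.59 to 2.39.

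**Figure D3:**
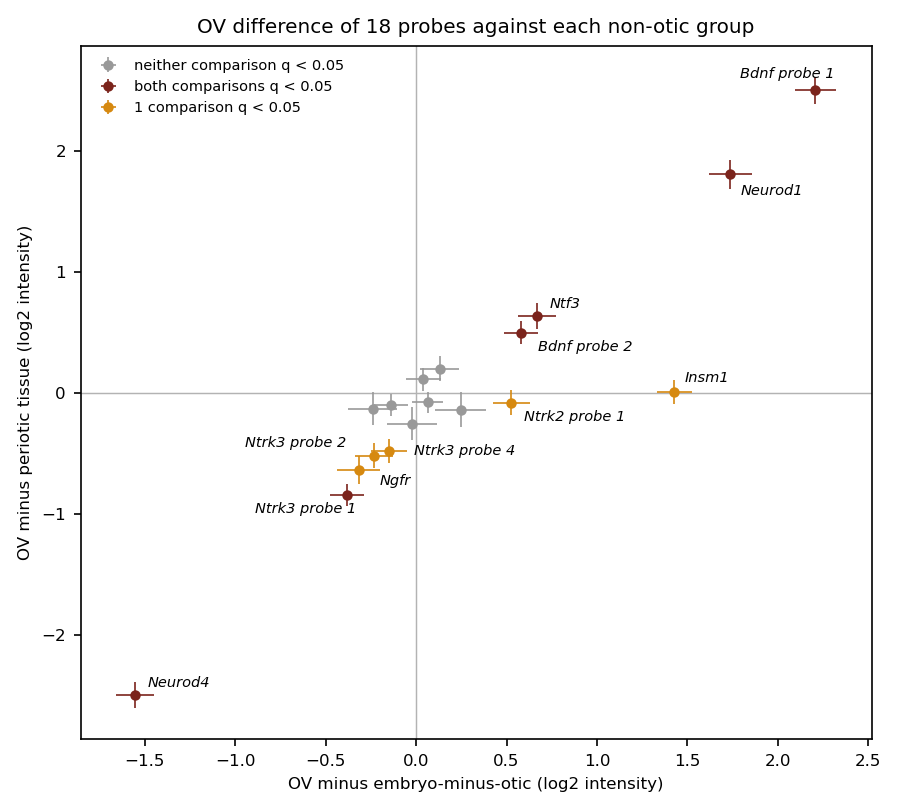
OV minus periotic tissue (vertical axis) against OV minus embryo-minus-otic (horizontal axis) for the 18 probes, as log2 differences with bars for the standard error, coloured by how many of the comparisons passed *q* under 0.05. *Bdnf* probe 1 (2.50 and 2.21) and *Neurod1* (1.81 and 1.74) lie far to the upper right, and *Neurod4* (-2.49 and -1.55) lies to the lower left. Both axes use the same OV arrays, so the alignment of the points along the diagonal is not a result.

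The receptors showed another picture, since no receptor probe was called higher in OV against both other groups by limma, nor was any at an unadjusted p under 0.05 in both. *Ngfr*, which encodes p75 and is known from neural crest as well as neurons, read 7.79, 7.94 and 7.97 for OV (7.90 ± 0.0973), 8.76, 8.49 and 8.35 for periotic tissue (8.53 ± 0.21) and 8.44, 8.14 and 8.08 for embryo-minus-otic (8.22 ± 0.195). All OV arrays lay below all 6 non-otic arrays, and the non-otic groups overlapped. OV was 1.55-fold lower than periotic tissue (log2 difference -0.63, SE 0.119, *q* = 0.00177). The OV difference from embryo-minus-otic was -0.32 (95% interval -0.57 to -0.06, *q* = 0.115), which did not pass the threshold. Periotic tissue against embryo-minus-otic gave 0.32 (0.06 to 0.57, *q* = 0.173), and this passed with median normalization (1.46-fold, *q* = 0.0123, in a range up to 0.534 over the alternatives). The neural crest list and the hindbrain list were likewise lowest in OV and highest in periotic tissue, and their part in the result was not tested.

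*Ntrk2*, the BDNF receptor gene, was measured best by probe 1, annotated to transcript variant 1. It read 7.72, 7.95 and 7.75 for OV (7.80 ± 0.124), 7.84, 7.79 and 8.02 for periotic tissue (7.88 ± 0.12) and 7.13, 7.41 and 7.29 for embryo-minus-otic (7.28 ± 0.138). OV and periotic tissue overlapped, with a difference of -0.08 (95% interval -0.30 to 0.14, *q* = 0.797). Both lay above all embryo-minus-otic arrays, OV by 1.44-fold (*q* = 0.00231) and periotic tissue by 1.52-fold (*q* = 0.00138), and the OV call was lost without normalization between arrays (*q* = 0.136, in a range from 0.00162 over the alternatives). Probe 2 was above background on all 9 arrays and passed no comparison, with *q* from 0.165 to 0.726, and its differences had the same signs as those of probe 1. Probe 3, also annotated to variant 1, was above background on no array.

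*Ntrk3*, the NT-3 receptor gene, was called lower in OV than in both other groups at probe 1 only. Probe 1 (transcript variant 1) read 6.0, 5.80 and 5.74 for OV (5.85 ± 0.136), 6.70, 6.77 and 6.60 for periotic tissue (6.69 ± 0.0884) and 6.27, 6.21 and 6.22 for embryo-minus-otic (6.23 ± 0.0336). It was above background on 0 OV arrays, 3 periotic tissue arrays and 1 embryo-minus-otic array, and the groups did not overlap. Periotic tissue was at least 1.40-fold higher than OV (log2 difference of OV from periotic tissue -0.84, SE 0.0919, *q* = 9.1e-06) and 1.37-fold higher than embryo-minus-otic (*q* = 0.00588). Embryo-minus-otic was at least 1.02-fold higher than OV (*q* = 0.0115), a call lost without OV replicate 2 (*q* = 0.0508), without OV replicate 3 (*q* = 0.0601) and without normalization between arrays (*q* = 0.137), where the alternatives ranged from 0.00326 to 0.137. The call between the non-otic groups was also lost without normalization (*q* = 0.638, in a range from 0.00222). With neqc the ratio of OV to periotic tissue went from 0.559 to 0.346.

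The variant 2 probes of *Ntrk3* gave the same direction against periotic tissue. Probe 2 read 5.94, 5.74 and 5.82 in OV (5.83 ± 0.101) and 6.24, 6.24 and 6.57 in periotic tissue (6.35 ± 0.188), which was at least 1.11-fold higher (*q* = 0.00362). Probe 4 read 5.64, 5.92 and 5.65 in OV (5.74 ± 0.158) and 6.20, 6.10 and 6.34 in periotic tissue (6.21 ± 0.119), at least 1.01-fold higher (*q* = 0.00388), with 1 periotic tissue array above background. Both calls were lost without normalization between arrays (*q* = 0.0818 and 0.174, in ranges from 0.00141 and 0.00128). Between OV and embryo-minus-otic, neither probe 2 nor probe 4 was called (*q* = 0.215 and 0.445). Probe 3, of variant 1, was above background on 1 array and passed no comparison (*q* from 0.361 to 0.958). The hindbrain list and the neural crest list followed the same order of groups as *Ntrk3* probe 1, and their part in the result was not tested.

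Counted over single arrays, 4 probes (*Neurod1*, *Bdnf* probes 1 and 2, and *Ntf3*) had all OV arrays above all 6 non-otic arrays, where 6.86% of all probes did. Another 4 (*Neurod4*, *Ngfr* and *Ntrk3* probes 1 and 2) had all OV arrays below them, where 5.60% of all probes did. *Neurog1* and *Pou4f1* were the genes with no called probe in any of the 3 comparisons.

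Between the non-otic groups, 4 probes were higher in periotic tissue (*Neurod4*, *Insm1*, *Ntrk2* probe 1 and *Ntrk3* probe 1), where 2.86% of all probes were. No probe of the set was called lower in periotic tissue by limma (background 2.95%), and 1, *Bdnf* probe 1, had an unadjusted p under 0.05. The median difference over the 18 probes was 0.18 (log2), beside 0.01 over all probes.

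The wider neuronal programme was described with a list of 38 other proneural and neuronal differentiation genes, 36 of which were on the array with 46 probes. Of these probes, 15 were above background on no array. In OV, 19 of the 46 probes (41.3%) were lower than in periotic tissue, where 5.15% of all probes were, and 1 (2.17%) was higher, where 5.07% were. Against embryo-minus-otic 11 (23.9%) were lower and 4 (8.70%) were higher, beside 5.51% and 5.89% of all probes. Against both groups 11 (23.9%) were lower and 1 (2.17%) was higher, beside 2.65% and 3.51%. The median difference was -0.23 from periotic tissue and -0.10 from embryo-minus-otic. In periotic tissue 20 probes (43.5%, beside 2.86% of all probes) were higher than in embryo-minus-otic and 0 were lower by limma, also 0 at an unadjusted p under 0.05.

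The exception that was higher in OV than in both groups was *Hes6*, a factor that promotes neuronal differentiation. One of its 3 probes read 8.76, 8.79 and 9.19 in OV (8.91 ± 0.238), 1.49-fold above periotic tissue (*q* = 0.0342) and 1.74-fold above embryo-minus-otic (*q* = 0.00374). Its other probes did not pass against both groups. *Neurog2*, the proneural gene used by epibranchial placodes and spinal neurons, was above background on no OV array at its brighter probe (6.01, 5.68 and 5.63), at least 3.54-fold lower than in periotic tissue (*q* = 6.05e-09) and at least 2.94-fold lower than in embryo-minus-otic (*q* = 3.05e-08). The neurofilament gene *Nefm* was 7.96-fold lower in OV than in periotic tissue (*q* = 1.19e-08), and the growth cone gene *Stmn2* was 7.11-fold lower (*q* = 6.85e-07). Against embryo-minus-otic they were 3.17-fold (*q* = 9.72e-06) and 3.06-fold lower (*q* = 0.000274). *Myt1*, a zinc finger gene of early neurons, was 4.65-fold and 2.40-fold lower by its measured means (*q* = 2.08e-08 and 1.26e-05), with 1 OV array above background. *Stmn2* was above background on 2 OV arrays.

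Of 24 other neurotrophin ligands, receptors and signalling partners, 18 were on the array with 32 probes, 13 of them above background on no array. Against periotic tissue 6 probes (18.8%, beside 5.07% of all probes) were higher in OV, against embryo-minus-otic 5 were (15.6%, beside 5.89%), and 4 were higher than in both (12.5%, beside 3.51%). By limma 0 were lower in OV in either comparison, also 0 at an unadjusted p under 0.05. The median difference of the list was 0.02 from periotic tissue and 0.05 from embryo-minus-otic, and between the non-otic groups 1 probe (3.12%, beside 2.86%) was higher and 2 (6.25%, beside 2.95%) were lower in periotic tissue. The ligand genes *Ngfb* (nerve growth factor) and *Ntf5* were above background on no array.

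The 4 probes higher than in both groups were those of an adaptor, a pair of sorting receptors and a p75 partner. *Gab1*, an adaptor of receptor kinases, read 10.56, 10.71 and 10.90 in OV (10.73 ± 0.171) and was 1.80-fold above periotic tissue (*q* = 3.25e-05) and 1.83-fold above embryo-minus-otic (*q* = 2.37e-05). The sorting receptor gene *Sorl1* was 1.69-fold and 1.70-fold higher (*q* = 0.00109 and 0.000946), and *Sorcs1*, of the same family, was 1.49-fold and 1.53-fold higher (*q* = 0.000861 and 0.000422). *Ngfrap1*, named for its product's binding to p75, was 1.30-fold and 1.27-fold higher (*q* = 0.0144 and 0.0237), so it stood above both groups while *Ngfr* itself stood below periotic tissue.

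**Figure D4:**
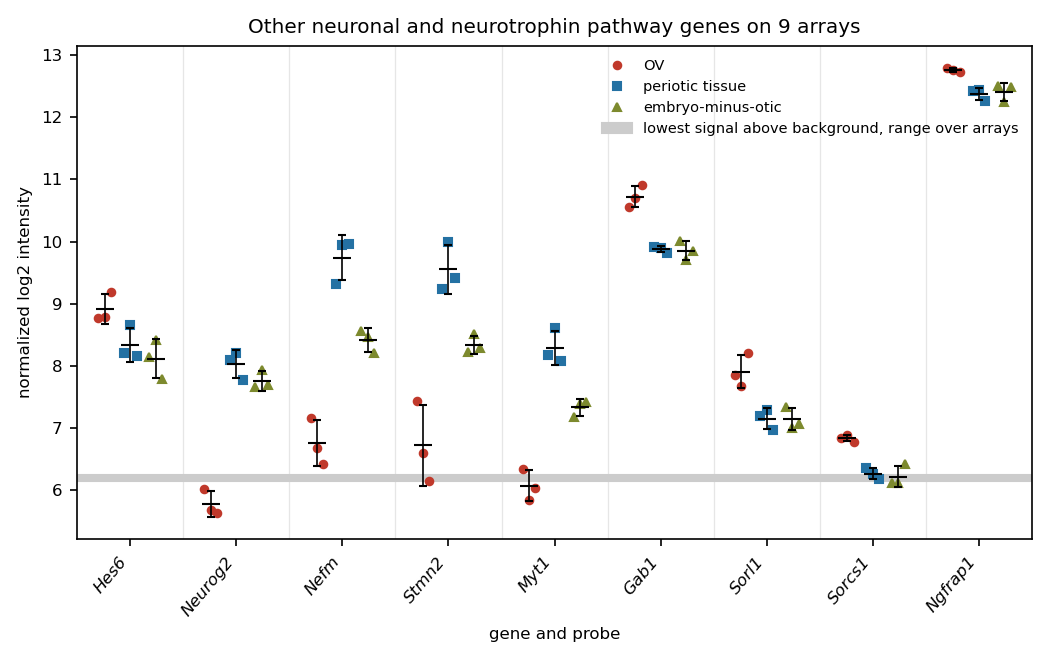
Normalized log2 intensity on the 9 arrays of the 9 other neuronal and neurotrophin pathway genes that passed against both non-otic groups and were named by rule, with bars for the group mean ± SD (n = 3) and a grey band for the lowest signal above background. *Neurog2*, *Nefm*, *Stmn2* and *Myt1* are lowest in OV. *Hes6*, *Gab1*, *Sorl1*, *Sorcs1* and *Ngfrap1* are highest in OV.

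The GDNF family, a separate set of neuronal survival factors, was mostly dim, with 9 of its 16 probes above background on no array. In OV 2 probes (12.5%, beside 5.07% of all probes) were higher than in periotic tissue, both of the artemin receptor gene *Gfra3* (at least 1.15-fold, *q* = 0.00232, and at least 1.09-fold, *q* = 0.00368). Against embryo-minus-otic 1 probe was higher, that of *Gfra1*, which was above background on no array, and 1 was lower, that of *Gdnf* (1.86-fold, *q* = 0.000152). Each is 6.25% of the 16, close to the 5.89% and 5.51% of all probes.

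The probes most like 4 of the genes over the 9 arrays were found among 11849 probes above background, by Pearson's r of log2 intensity. These r values describe 9 arrays that fall into 3 groups. *Bdnf* probe 1 was closest to *Marveld3* (r = 0.997), *Dlx5* (0.996), *Cldn3* (0.995), *Gipc2* (0.992) and *Oc90* (0.992). For *Ntf3* the closest were *Cadps2* (0.985), *Tulp1* (0.984), *Tbc1d10a* (0.984), *Prkcd* (0.981) and *Pcdh20* (0.980), and for *Ngfr* they were *Bbc3* (0.967), *Bicc1* (0.959), *Pmm1* (0.959), *Nin* (0.958) and *Gal* (0.957). *Neurog1*, which was above background on 1 array, had lower values, from 0.910 for *Gemin7* to 0.884 for *Srrm2*.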

How the data were processed

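RNA from each pool was labelled with biotin and hybridized to an Illumina MouseRef-8 array of 1 colour. The authors deposited, for each probe, the average bead signal as an intensity without normalization between arrays, and whether a background was subtracted is not given in the sources used here. A deposited detection p-value places each probe among the negative controls of its array. All columns of values were matched to a sample by name.

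Signals were log2 transformed (values under 1 set to 1, which changed 0 values) and quantile normalized over 9 arrays. One model of the 3 groups was fitted to the 25697 probes (limma 3.58.1, R 4.3.3), with Benjamini-Hochberg adjustment. Probes were not averaged by gene, and symbols are those of the array. Within the set, the probes of *Neurog1* and *Ntf3*, *Bdnf* probes 2 and 3 and *Ntrk2* probe 2 had a symbol but no definition or chromosome. The code was tested on simulated data. Alternatives were neqc (offset 16), median or no normalization, a filter on dim probes, a fit of 2 groups alone, a replicate block, an intensity trend in the prior, leaving out each array, and detection at 0.05. The slide of each array was not analysed here.

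Named genes were the 10 genes, up to 4 probes per direction and list past the threshold against both non-otic groups and above background in the brighter group, and the 5 most correlated probes of 4 genes. Other list genes the text names (*Ngfb*, *Ntf5*, *Gfra1*, *Gfra3* and *Gdnf*) and the markers in the tissue check were chosen after their values were seen. The 10 genes and the lists were chosen with earlier results of these data known. A further marker list, for cranial sensory neurons, is not reported here.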

Additional observations from a re-analysis of the deposited data

How the results depend on the processing

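The 34 comparisons of the set's probes with a fold Δ or a lower bound were repeated under up to 16 alternatives. They gave 522 values with the same direction and side of the threshold. Another 10 values fell below it, 2 passed it and 9 changed direction. None of the 34 that was called in the model of the report changed direction. Comparisons without a fold Δ, and the probes of the other lists, were not part of this count. With neqc, and with the intensity trend, 5 probes of the set were called between periotic tissue and embryo-minus-otic in place of 4, a change outside this count. Without normalization between arrays, 4 probes of the set were called between OV and embryo-minus-otic in place of 8, and over all probes 1381, 1383 and 696 were called in the 3 comparisons in place of 2625, 2930 and 1493. With median normalization these were 1684, 2142 and 1127. The OV to periotic tissue ratio of *Insm1* was 1.01, and it was 0.962 with median normalization, 0.960 without normalization and 0.964 to 1.06 with each array left out. That of *Ntrk2* probe 2 was 0.910, and 0.838 to 1.05 with each array left out. The periotic tissue to embryo-minus-otic ratio of *Neurod1* was 0.950, and it was 1.01 with median normalization and 0.880 to 1.00 with each array left out. For *Pou4f1* probe 1 it was 0.926, and 1.03 with median normalization. The cause was not tested. The filter on dim probes left out *Ntrk3* probe 4.

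Arrays with the same number in different groups deviated together weakly (correlations of 0.011 to 0.234, 5 of 9 pairs over 0.1), although each of the 9 arrays correlated best with its own number. Whether a number marks the same litter across groups is not given in the labels, and the main model did not pair arrays. With the number as a replicate block, 9, 8 and 4 probes of the set were called, the same counts as without it, and no call changed. Signal over background limits *Neurog1*, *Ntrk3* probe 3 and the 3 probes above background on no array. It also limits each comparison given as a lower bound and the OV level of *Neurod4*.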
